A study of Rattus norvegicus with 22 samples.

Results

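Kidney RNA of PKD/Mhm (Cy/+) rats that had received ASC-derived CM was compared with kidney RNA of rats of the same strain that had received ASC i.v. The comparison took in 10 of the 22 rats analysed here, namely the 4 rats whose treatment label is CM and the 6 rats labelled as i.v. ASC, and every gene of their count files. Adipose-derived stromal cells (ASC) are human mesenchymal cells from lipoaspirates, and conditioned medium (CM) is the supernatant of their culture, which carries what the cells secrete without the cells. The comparison therefore asks how the kidney differed after the secreted factors from how it was after the cells themselves. All rats were male heterozygous animals aged 8 months, and by the labels the CM and i.v. ASC rats were treated once a month for 6 months. The 6 untreated rats and the 6 i.p. ASC rats shared the strain, the sex and the age. The labels do not name the cell of origin of the CM or its route. The study's methods name ASC and the i.v. route, whereas its other text names the i.p. route, so the route of the CM group is uncertain here. The remaining rats of the CM group were not analysed here.

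PKD/Mhm (Cy/+) rats carry a missense mutation in Anks6, the gene of SamCystin, and develop cysts along the renal tubule. The kidney is built of nephrons, whose glomerulus, proximal tubule, thick ascending limb and distal convoluted tubule lead into the collecting duct. The collecting duct holds principal cells, which take up sodium through the epithelial sodium channel and water through aquaporins, and intercalated cells, which move acid and base with a vacuolar proton pump. The collecting duct opens at the papilla into the renal pelvis, which is lined by urothelium, a layered epithelium whose surface cells are covered by plaques of uroplakins. In bulk RNA of the kidney fewer cells of a type and less RNA per cell cannot be told apart.

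The groups were alike in depth and unlike within themselves. Total counts ran from 12195682 to 14734772 per rat, with a median of 12758868, between 13867 and 14174 genes were detected in a rat, and the 10 most abundant genes took 4.93% to 6.05% of the counts. The first principal component of all 22 rats held 42.8% of the variance and did not split CM from i.v. ASC. Along it CM rat 1 and i.v. ASC rat 1 lay at the same end, at 51.5 and 56.9, and CM rat 4 and i.v. ASC rat 6 at the other, at -26.8 and -30.8. The defining genes of the kidney were present in all 10 rats. Slc34a1, the phosphate transporter of the proximal tubule, ranged from 698 to 2717 CPM (a gene's count relative to the total of the rat) and Umod, the uromodulin of the thick ascending limb, from 1639 to 7945 CPM. The libraries of 4 rats stood apart from the rest. In i.v. ASC rats 1, 3, 4 and 5 the mean log2 CPM of the 10 urothelial genes tested was 4.64, 5.57, 1.44 and 3.76, whereas the highest of the 18 other rats, an untreated one, was at 0.86. The calls and the main lists below are therefore also described without these 4 rats, which leaves 2 i.v. ASC rats, a choice made with their values in view.

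No gene passed the adjusted threshold of 0.05 in the main test. Of 12867 genes tested with edgeR's quasi-likelihood test and Benjamini-Hochberg adjustment, 0 were called higher (0.0%) and 0 lower (0.0%) in CM, and the smallest adjusted p was 0.398. An unadjusted p under 0.05 was reached by 527 genes, 4.1% of those tested, with 165 higher in CM (1.28%) and 362 lower (2.81%). With no difference between the groups, 643 genes would be expected at that p. The alternative test, DESeq2, called 22 of 15266 genes, 21 lower in CM (0.138%) and 1 higher (0.00655%). Of the 22, 8 were urothelial genes of the list and 14 were not. Without the 4 rats edgeR and DESeq2 each called 0 genes, with an unadjusted p under 0.05 in 942 of 12993 (7.25%) and 1194 of 15196 genes (7.86%). The 942 genes of edgeR were 508 higher (3.91%) and 434 lower (3.34%) in CM, and 51.4% of the genes in that fit lay above 0. By level alone, 29 genes had all 4 CM rats above all 6 i.v. ASC rats (0.225% of the genes tested) and 51 had all CM rats below (0.396%). With groups of 4 and 6 rats some genes separate in this way by chance, so a lack of overlap below is a description only. The median log2 fold change over all genes, CM minus i.v. ASC as everywhere below, was 0.02, and 54.7% of genes lay above 0.

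**Figure D1:**
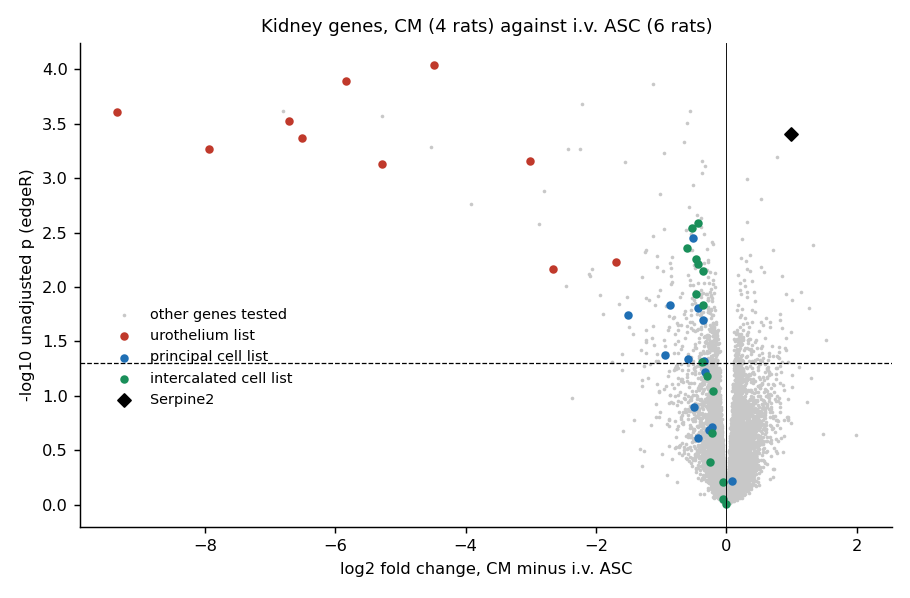
Log2 fold change of each of the 12867 genes tested (x axis, CM minus i.v. ASC) against the -log10 of its unadjusted edgeR p (y axis), with 3 cell type lists coloured and the dashed line at a p of 0.05. The 10 urothelial genes lie far to the left, the collecting duct genes sit just left of 0, and Serpine2 at 0.99 has the smallest p on the right.

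Promoters of 5 genes are shown here, because these genes carry the patterns described below. They are the urothelial genes and the collecting duct genes of the lists whose CM and i.v. ASC rats did not overlap in CPM, and Serpine2, the only gene that DESeq2 called higher in CM. Each run is the RefSeq GRCr8 promoter window of 300 bases, 250 before and 50 after the start of the gene, 5′ to 3′ on the strand of the gene. Capitals mark a match, on either strand, to 3 motifs searched, the TATA box TATAAA, the forkhead motif GTAAACA and the grainyhead motif AACCNGTT.
Upk1b (chr11:75459131-75459430, + strand): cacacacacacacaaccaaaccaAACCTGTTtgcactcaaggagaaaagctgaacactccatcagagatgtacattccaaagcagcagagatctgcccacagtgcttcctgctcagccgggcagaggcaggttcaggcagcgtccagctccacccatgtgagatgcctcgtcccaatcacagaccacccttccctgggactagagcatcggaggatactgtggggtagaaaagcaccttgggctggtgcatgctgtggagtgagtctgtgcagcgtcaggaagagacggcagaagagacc
Krt5 (chr7:134730520-134730819, - strand): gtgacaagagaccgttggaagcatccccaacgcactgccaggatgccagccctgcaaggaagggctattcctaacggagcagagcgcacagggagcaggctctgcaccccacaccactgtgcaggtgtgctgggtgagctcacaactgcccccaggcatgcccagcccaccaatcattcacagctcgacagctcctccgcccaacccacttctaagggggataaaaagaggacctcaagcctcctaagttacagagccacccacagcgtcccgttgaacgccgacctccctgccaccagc
Scnn1g (chr1:185735975-185736274, + strand): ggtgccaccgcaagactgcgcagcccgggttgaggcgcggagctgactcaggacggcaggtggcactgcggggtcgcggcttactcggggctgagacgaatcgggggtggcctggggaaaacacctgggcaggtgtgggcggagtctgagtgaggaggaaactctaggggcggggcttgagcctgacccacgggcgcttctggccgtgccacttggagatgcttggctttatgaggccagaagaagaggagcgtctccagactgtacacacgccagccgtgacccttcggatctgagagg
Atp6v1b1 (chr4:117781194-117781493, + strand): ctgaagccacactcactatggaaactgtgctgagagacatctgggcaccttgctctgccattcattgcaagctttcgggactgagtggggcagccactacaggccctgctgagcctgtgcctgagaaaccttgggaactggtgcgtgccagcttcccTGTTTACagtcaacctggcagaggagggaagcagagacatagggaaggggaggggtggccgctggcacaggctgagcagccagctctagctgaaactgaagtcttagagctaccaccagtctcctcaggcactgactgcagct
Serpine2 (chr9:88637153-88637452, - strand): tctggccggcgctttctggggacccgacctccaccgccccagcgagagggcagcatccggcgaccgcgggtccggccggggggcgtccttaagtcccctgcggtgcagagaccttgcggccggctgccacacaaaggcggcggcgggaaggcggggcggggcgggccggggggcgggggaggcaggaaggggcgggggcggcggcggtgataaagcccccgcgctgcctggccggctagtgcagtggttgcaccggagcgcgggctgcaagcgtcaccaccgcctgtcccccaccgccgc
The window of Upk1b, a uroplakin gene, held a match to the grainyhead motif, which is bound by transcription factors of layered epithelia. That of Atp6v1b1, a proton pump gene of intercalated cells, held a match to the forkhead motif, the family motif of the intercalated cell factor Foxi1. No match was found in the windows of Krt5, Scnn1g and Serpine2. Over all 27457 promoters of the table, 1.97% held the grainyhead motif, 3.76% the forkhead motif and 14.3% the TATA box, and over the 10393 of genes that were tested, 1.62%, 2.29% and 7.53%. Of the 12 intercalated genes that were tested and have a window, 1 held the forkhead motif, and of the 7 such urothelial genes, 1 held the grainyhead motif. The matches describe these letters only.

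The urothelial genes differed most between the groups, and the difference lay in 4 of the 6 i.v. ASC rats. All 10 tested members of the list were lower in CM, each with an unadjusted p under 0.05, against 45.3% of all genes with a fold change below 0 and 2.81% lower at that p. Their median log2 fold change was -5.56. Of the 16 list genes in the files, 10 passed the filter with all rats and 7 without the 4 rats. Members such as Krt5 were thus tested only because of these 4 rats, and the filter partly sets the count. Upk1b, a tetraspanin of the uroplakin plaque, was at 0.637, 0.321, 1.22 and 1.42 CPM in CM rats 1 to 4. In i.v. ASC rats 1 to 6 it was at 40.4, 1.66, 64.1, 3.41, 11.9 and 1.46 CPM, so that rats 1, 3 and 5 lay far above the rest, rat 4 lay in between and rats 2 and 6 lay next to the CM rats. Its log2 fold change was -4.48 (SE 0.93, edgeR adjusted p = 0.398, DESeq2 adjusted p = 1.42e-05). Krt5, a keratin of basal cells, was at 0.159, 0.241, 0.144 and 0.237 CPM in CM and at 11.2, 0.497, 45.8, 3.34, 8.57 and 0.307 CPM in i.v. ASC rats 1 to 6, the other list member without overlap between the groups.

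The same 4 rats were high in the other uroplakins. Upk1a, the partner of Upk2 in the plaque, was at 1.83, 2.09, 0.789 and 0.632 CPM in CM and at 100.7, 0.663, 152, 7.43, 51.9 and 0.23 CPM after i.v. ASC. Upk3a, the partner of Upk1b, was at 0.318, 0.0803, 0.287 and 0.158 CPM in CM and at 40.6, 0.166, 82.1, 2.25, 14.8 and 0.153 CPM after i.v. ASC. Upk2 had 0, 0, 0 and 1 counts in CM rats 1 to 4 and was at 36.05, 0.0829, 64.7, 2.39, 10.1 and 0.0767 CPM in i.v. ASC rats 1 to 6, and no fold is given because CM was under the floor of 3 counts in each rat. In rats 2 and 6 all 4 uroplakins were within or next to the range of the CM rats.

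Genes of the basal layer and of the differentiating surface behaved alike. Krt15, a basal keratin, was at 0.478, 1.44, 0.0718 and 0.158 CPM in CM and at 74.4, 0.414, 133, 8.31, 79.7 and 0.153 CPM after i.v. ASC. Tp63, the transcription factor of basal epithelial cells, was at 0.716, 1.28, 0.646 and 0.474 CPM in CM and at 10.02, 0.663, 17.3, 1.57, 7.94 and 0.69 CPM after i.v. ASC, with a log2 fold change of -3.01 (SE 0.76, edgeR adjusted p = 0.413). Krt14 was too low for the edgeR filter, with at most 1 count in a CM rat, but reached 8.43 CPM in i.v. ASC rat 3. Sprr1a, a small proline-rich protein of the cornified envelope, had 0, 2, 0 and 0 counts in CM rats 1 to 4 and was at 23.5, 0.166, 42.3, 0.682, 4.605 and 0 CPM after i.v. ASC. Grhl3, a grainyhead transcription factor of the urothelium, was at a mean of 0.626 ± 0.443 CPM (SD, n = 4) in CM and 4.03 ± 4.86 CPM (SD, n = 6) after i.v. ASC. The remaining member tested was Psca, a surface antigen, with means of 3.18 ± 1.37 CPM (SD, n = 4) and 10.3 ± 9.06 CPM (SD, n = 6).

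**Figure D2:**
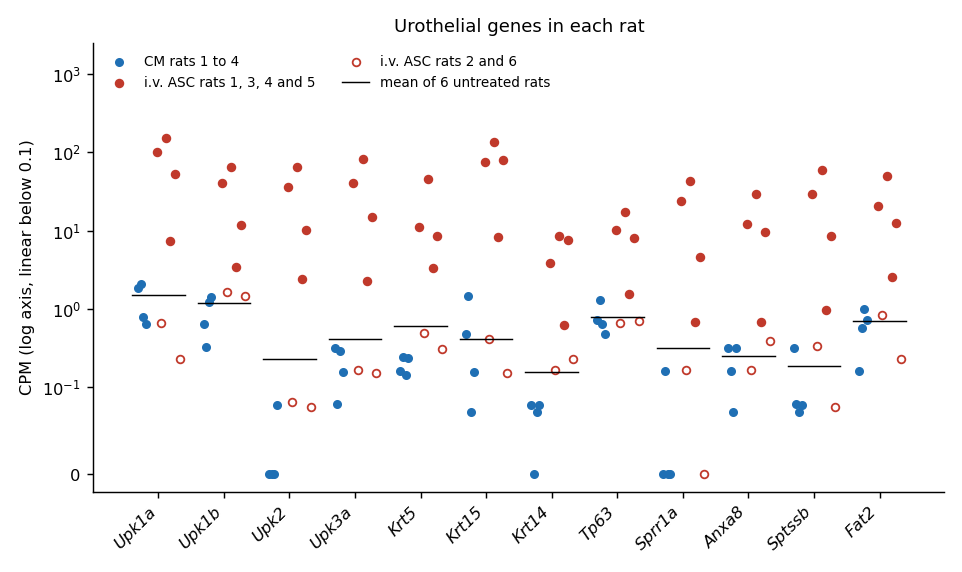
CPM (y axis, log scale that is linear below 0.1) of 12 genes in each CM rat (blue) and each i.v. ASC rat (red, filled for rats 1, 3, 4 and 5 and open for rats 2 and 6), with a black line at the mean of the 6 untreated rats. The filled red points lie above the others, up to 152 CPM for Upk1a, and the open points lie among or next to the CM rats.

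The CM rats were near the untreated rats in these genes. Upk1b was at 1.18 ± 0.341 CPM (SD, n = 6) in untreated rats, and its log2 fold change against them was -0.37 in CM and 4.12 after i.v. ASC. The median over the list against the untreated rats, which both comparisons share, was -0.28 for CM and 4.70 for i.v. ASC. The summed level of the list ran from 6.46 to 12.04 CPM in CM, from 6.98 to 646.1 CPM after i.v. ASC and from 4.62 to 20.1 CPM in untreated rats. Without the 4 rats, which were themselves chosen by this list, its median was 0.20 and 2 of 7 members were lower in CM, where 48.6% of all genes were lower in that fit.

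Most of the genes that DESeq2 called outside the list followed the same rats. Sptssb, a subunit of the enzyme that starts sphingolipid synthesis, was at 0.318, 0.0803, 0.0718 and 0.0791 CPM in CM and at 29.1, 0.332, 58.5, 0.954, 8.50 and 0.0767 CPM after i.v. ASC. Anxa8, an annexin, reached 29.5 CPM in i.v. ASC rat 3 against at most 0.318 CPM in CM. Fat2, an atypical cadherin of squamous epithelia, was at 0.159, 0.562, 1.005 and 0.711 CPM in CM and at 20.9, 0.8288, 49.7, 2.52, 12.5 and 0.23 CPM after i.v. ASC. In these 3 genes i.v. ASC rats 2 and 6 lay among or next to the CM rats. Crabp2, which carries retinoic acid to its receptor, was lower in all CM rats, at 0.796, 1.20, 1.51 and 0.87 CPM, than in all i.v. ASC rats, at 7.35, 2.07, 13.05, 1.77, 4.84 and 1.76 CPM. Uchl1, a ubiquitin hydrolase known from neurons, was at 10.9, 14.6, 12.8 and 20.2 CPM in CM and at 60.4, 26.7, 100.8, 19.4, 35.01 and 17.3 CPM after i.v. ASC. The homeobox gene Msx2 and Clca2, a chloride channel regulator, had log2 fold changes of -2.43 (SE 0.59) and -2.24 (SE 0.55). Tmem54, which edgeR did not test, was at 1 count or less in each CM rat and at up to 5.02 CPM in i.v. ASC rat 3. All 8 genes were highest in i.v. ASC rats 1, 3 and 5, the rats highest in uroplakins, and the part of the urothelial genes in these differences was not tested.

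A smaller set of genes was lower in CM evenly, against high and low i.v. ASC rats alike. S100a1, a calcium sensor protein, was at 46.7, 30.8, 42.6 and 40.6 CPM in CM and at 52.2, 65.9, 70.7, 61.95, 50.8 and 53.2 CPM after i.v. ASC, with no overlap. Its log2 fold change was -0.56 (SE 0.13, edgeR adjusted p = 0.398, DESeq2 adjusted p = 0.0296), and -0.56 without the 4 rats. It was -0.54 for CM and 0.01 for i.v. ASC against the untreated rats, whose mean was 58.5 ± 7.35 CPM (SD, n = 6). Acer2, a ceramidase of the Golgi, was at 235, 178, 267 and 276 CPM in CM and at 319.9, 324, 546, 391.8, 359 and 303 CPM after i.v. ASC. Its log2 fold change was -0.65 (SE 0.16, edgeR adjusted p = 0.412, DESeq2 adjusted p = 0.0362) and -0.39 without the 4 rats. Both differences kept their direction without the rats high in uroplakins. Cryba4, a beta crystallin, was at 4.38, 2.65, 3.88 and 3.79 CPM in CM and at 5.25, 9.28, 6.81, 5.59, 8.34 and 7.52 CPM after i.v. ASC, and its log2 fold change was -0.95 with all rats and -1.18 without the 4. Bnipl was at 1.43, 2.57, 1.51 and 2.61 CPM in CM and at 4.61, 3.90, 6.40, 3.27, 4.37 and 4.07 CPM after i.v. ASC. Pcdhga7 was at 9.79, 12.4, 11.4 and 10.9 CPM in CM and at 14.2, 20.1, 12.6, 19.3, 18.6 and 16.8 CPM after i.v. ASC, but this protocadherin shares exons with the others of its cluster, so its count is uncertain. In all 5 of these genes the groups did not overlap in CPM, where 0.396% of all genes had all CM rats below. The 5 were taken from the DESeq2 calls of the same rats. On the deposited TPM the groups overlapped in S100a1, Acer2 and Pcdhga7.

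Below these calls lay further genes with the same even pattern. Snurf, from an imprinted locus, was at 35.6, 30.3, 35.5 and 34.6 CPM in CM and at 36.5 to 47.3 CPM, with a median of 44.3 CPM, after i.v. ASC, with a log2 fold change of -0.33 and of -0.45 without the 4 rats. Snurf shares its transcript with Snrpn, so its count is uncertain too. S100a16, another calcium-binding S100 protein, was at 133, 127, 122 and 122 CPM in CM and at 135 to 189 CPM, with a median of 160.4 CPM, after i.v. ASC. Cdh1, the E-cadherin of epithelial junctions, was at 317, 321, 367 and 351 CPM in CM and at 353 to 555 CPM, with a median of 438 CPM, after i.v. ASC, so that only i.v. ASC rat 1 lay within the CM range. Ptges, which makes prostaglandin E2 and is strong in the collecting duct, was at 43.2, 32.99, 56.9 and 44.3 CPM in CM and at 51.3 to 76.2 CPM, with a median of 65.02 CPM, after i.v. ASC. None of these passed the adjusted threshold in either tool, with edgeR adjusted p-values from 0.413 for Snurf to 0.919 for Cdh1 and Ptges.

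The intercalated cell genes were lower in CM throughout, and their median was as low without the 4 urothelial rats. All 16 tested members were lower, 9 of them with an unadjusted p under 0.05 and 1 with no overlap between the groups in CPM, and 0 passed the adjusted threshold. Of all genes 45.3% were lower, 2.81% lower at that p and 0.396% lower with no overlap. Their median log2 fold change was -0.37, and -0.39 without the 4 rats, where 13 of 16 were lower, against 48.6% of all genes in that fit, and 7 of them lower at that p, against 3.34%. Over the whole list the mean log2 CPM was 7.64, 7.28, 7.45 and 7.45 in CM rats 1 to 4 and 7.63, 7.68, 7.82, 7.69, 7.96 and 7.86 in the 6 i.v. ASC rats. CM rat 1 reached the lowest i.v. ASC rats, and the other CM rats lay below all of them. The untreated rats had a mean of 7.78 ± 0.17 (SD, n = 6), the same as the i.v. ASC rats with 7.78 ± 0.13 (SD, n = 6), whereas the CM rats had 7.46 ± 0.15 (SD, n = 4).

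The subunits of the proton pump were lower together. Atp6v1g3 was at 315, 202, 250.02 and 239 CPM in CM and at 286, 411, 394, 358, 373 and 349.7 CPM after i.v. ASC, with only CM rat 1 reaching into the i.v. ASC range (log2 fold change -0.52, SE 0.16, edgeR adjusted p = 0.919). Atp6v1b1, the subunit mutated in distal renal tubular acidosis with deafness, was at 312, 232, 302 and 286 CPM in CM and at 313, 383, 348, 363, 375 and 407 CPM after i.v. ASC. Its highest CM rat and lowest i.v. ASC rat differed by less than 1 CPM, so the lack of overlap is narrow. On the deposited TPM the groups overlapped in Atp6v1b1, with CM at up to 181.4 and i.v. ASC from 158.0. Another pump subunit of the list, Atp6v0a4, was lower in CM like every member of the list, and its levels are not reported here. A further pair of subunits had the same order. Atp6v1c2 was at 64.6, 49.5, 46.9 and 51.2 CPM in CM and at 63.6 to 79.7 CPM, with a median of 72.8 CPM, after i.v. ASC. Atp6v0d2, of the membrane part of the pump, was at 109, 83.1, 88.8 and 86.2 CPM in CM and at 104 to 151 CPM, with a median of 123 CPM, after i.v. ASC.

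Base and ammonia transport followed. Slc26a4, pendrin, the chloride and bicarbonate exchanger of base-secreting intercalated cells, was at 312, 179, 338 and 356 CPM in CM and at 359, 556, 449.8, 459, 343 and 535 CPM after i.v. ASC. Only CM rat 4 exceeded the lowest i.v. ASC rat, and the log2 fold change was -0.61 (SE 0.19, edgeR adjusted p = 0.993) and -0.88 without the 4 rats. Against the untreated rats, at 488 ± 42.7 CPM (SD, n = 6), it was -0.72 for CM and -0.12 for i.v. ASC. Rhbg and Rhcg, the ammonia channels, had log2 fold changes of -0.47 (SE 0.15) and -0.36 (SE 0.14). Foxi1, the transcription factor of intercalated cells, was at 137, 114, 119.9 and 125 CPM in CM and at 124, 133, 173, 187, 218 and 195 CPM after i.v. ASC, where rats 1 and 2 lay inside the CM range. Other markers of the acid-secreting cells had smaller log2 fold changes. Slc4a1, the anion exchanger of acid-secreting cells and also of red blood cells, differed little, at 535, 468, 276 and 230.1 CPM in CM and at 444, 188, 416, 289, 712 and 286 CPM after i.v. ASC (log2 fold change -0.04, 95% interval -0.67 to 0.58). The carbonic anhydrase Car2 had a log2 fold change of -0.06 (95% interval -0.30 to 0.18).

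**Figure D3:**
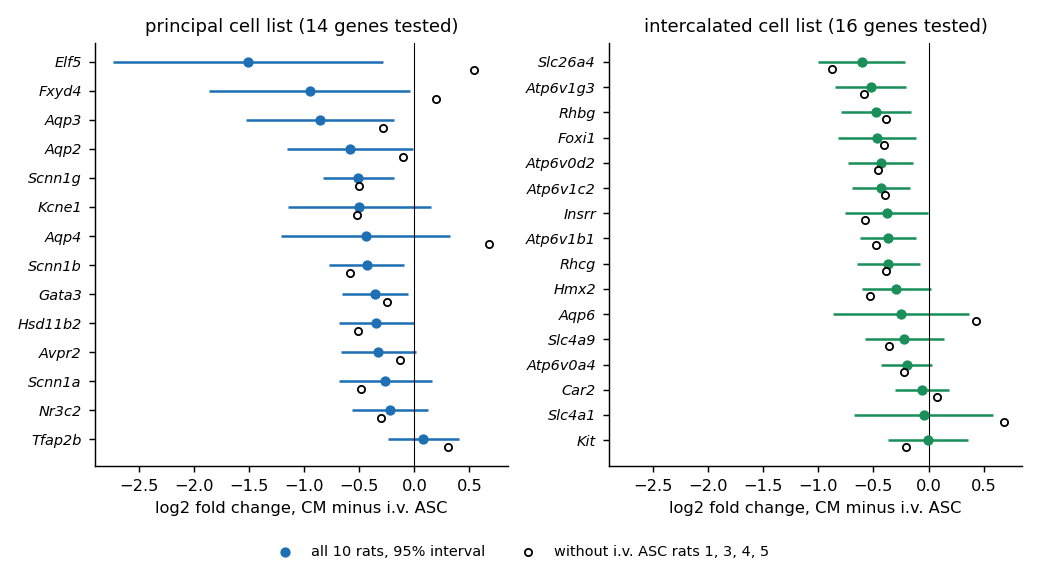
Log2 fold change, CM minus i.v. ASC (x axis), of the 14 principal cell genes and the 16 intercalated cell genes tested, with its 95% interval for all 10 rats (filled) and its value without i.v. ASC rats 1, 3, 4 and 5 (open). The intercalated genes keep their place for the most part, whereas Elf5, Fxyd4, Aqp2 and Aqp3 move to the right when the 4 rats are left out.

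The principal cell genes were also lower in CM, but in a pair of patterns. Of 14 tested members 13 were lower (45.3% of all genes), 8 with an unadjusted p under 0.05 (2.81% of all genes) and 0 past the adjusted threshold, with a median log2 fold change of -0.44. Without the 4 rats 10 were lower (48.6% of all genes), 3 were lower and 1 was higher at that p (3.34% and 3.91% of all genes), and the median was -0.27. The genes of the sodium channel and of its hormonal control were lower in mean in CM, and only Scnn1g separated the groups. Scnn1g, its gamma subunit, was at 121, 91.03, 109 and 118 CPM in CM and at 139.7, 167, 206, 137, 141 and 145 CPM after i.v. ASC, with no overlap (log2 fold change -0.51, SE 0.15, edgeR adjusted p = 0.989) and -0.50 without the 4 rats. Scnn1b, the beta subunit, was at 159, 130.4, 199 and 186 CPM in CM and at 183, 269, 299, 188, 189.7 and 237 CPM after i.v. ASC, and -0.43 became -0.58 on the log2 scale without the 4. Scnn1a, the alpha subunit, had a log2 fold change of -0.26 (95% interval -0.68 to 0.16). All 3 subunits were thus lower in mean, the alpha subunit least. Hsd11b2, which inactivates glucocorticoids and so keeps the mineralocorticoid receptor for aldosterone, was at 886, 594, 1041 and 940.5 CPM in CM and at 887 to 1320 CPM, with a median of 1087 CPM, after i.v. ASC, where CM rat 2 was lowest. Gata3, a transcription factor of the duct, was at 49.1, 46.9, 55.3 and 58.1 CPM in CM and at 51.6 to 83.4 CPM, with a median of 66.7 CPM, after i.v. ASC.

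The water channels and their companions were highest in i.v. ASC rats 3 and 5. Aqp2, the channel that vasopressin brings to the apical membrane, was at 866, 726, 497 and 545 CPM in CM and at 698, 714, 1576, 783, 1443 and 709 CPM after i.v. ASC. The other 4 i.v. ASC rats lay inside the CM range, and the log2 fold change went from -0.58 to -0.10 without the 4 rats. Aqp3, the basolateral channel, was at 241, 196, 139.6 and 159 CPM in CM and at 253, 235, 624, 224, 447 and 217 CPM after i.v. ASC. I.v. ASC rats 3 and 5 were again highest in the next pair of genes. Fxyd4, a regulator of the sodium pump, was at 62.9, 51.1, 24.3 and 24.4 CPM in CM and at 47.5, 35.4, 190.3, 45.5, 116 and 36.1 CPM after i.v. ASC, and its log2 fold change of -0.95 turned to 0.20. Elf5, a transcription factor of principal cells, was at 2.55, 2.97, 1.15 and 0.711 CPM in CM and at 2.83, 0.995, 14.3, 2.04, 9.77 and 1.53 CPM after i.v. ASC, and its log2 fold change of -1.51 turned to 0.54. Both rats were also high in the urothelial list. So was i.v. ASC rat 1, which lay inside the CM range in Aqp2, Fxyd4 and Elf5 and a little above it in Aqp3. The part of the urothelial genes in the difference of the 4 genes was not tested.

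Among the genes with an unadjusted p under 0.05, fewer were higher in CM than lower, and Serpine2 was the one that DESeq2 called higher. Serpine2, protease nexin 1, a secreted inhibitor of thrombin and plasminogen activators, was at 38.6, 39.6, 29.3 and 28.7 CPM in CM and at 11.96, 22.6, 7.21, 19.1, 24.4 and 17.4 CPM in the 6 i.v. ASC rats. The lowest CM rat was above the highest i.v. ASC rat. The i.v. ASC rats 3 and 1, highest in urothelial genes, were lowest here, but rat 5, also high in urothelial genes, was the highest i.v. ASC rat. Its log2 fold change was 0.99 (SE 0.24, edgeR adjusted p = 0.412, DESeq2 adjusted p = 0.0319), and 0.77 without the 4 rats. The untreated rats were at 15.9 ± 1.95 CPM (SD, n = 6), and against them the log2 fold change was 1.09 for CM and 0.10 for i.v. ASC.

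Ryr2, the calcium release channel of the endoplasmic reticulum, was at 3.58, 4.90, 6.03 and 4.59 CPM in CM and at 2.26, 3.40, 2.43, 2.73, 3.02 and 2.84 CPM after i.v. ASC, with no overlap. Its log2 fold change was 0.78 (SE 0.19, edgeR adjusted p = 0.413, DESeq2 adjusted p = 0.0664), and the mean of the untreated rats lay between the groups, at 3.60 ± 0.825 CPM (SD, n = 6). Mast3, a serine and threonine kinase, was at 105, 108, 91.3 and 93.8 CPM in CM and at 73.1 to 88.6 CPM, with a median of 78.7 CPM, after i.v. ASC. Lrp4, a co-receptor in Wnt and agrin signalling, was at 39.9, 35.96, 41.7 and 36.05 CPM in CM and at 27.7 to 35.6 CPM, with a median of 30.4 CPM, after i.v. ASC. Afg2b, Syn1 and Zfp282 had log2 fold changes of 0.53, 0.72 and 0.23, and in these 3 genes as well the groups did not overlap in CPM. Of all genes 0.225% had all CM rats above, and the genes named here were taken by their small p in the same rats. On the deposited TPM the groups overlapped in Lrp4, Afg2b and Zfp282. For Syn1, a synapsin, the levels were 2.63, 2.89, 2.08 and 1.98 CPM in CM and 0.746 to 1.91 CPM, with a median of 1.52 CPM, after i.v. ASC.

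The rest of the 12 genes with the smallest p on this side overlapped between the groups. Eif2ak3, the kinase PERK of the unfolded protein response, was at 58.7, 62.1, 73.3 and 68.9 CPM in CM and at 47.03 to 62.2 CPM, with a median of 56.6 CPM, after i.v. ASC. Tia1, an RNA-binding protein of stress granules, was at 12.5, 15.1, 14.4 and 14.5 CPM in CM and at 9.54 to 13.1 CPM, with a median of 10.6 CPM, after i.v. ASC. Nr2f2, a nuclear receptor of veins and mesenchyme, was at 103, 110.2, 100.7 and 90.9 CPM in CM and at 75.6 to 90.98 CPM, with a median of 80.5 CPM, after i.v. ASC. Neurl2 and Tmem140 had log2 fold changes of 0.53 (SE 0.17) and 0.31 (SE 0.10).

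**Figure D4:**
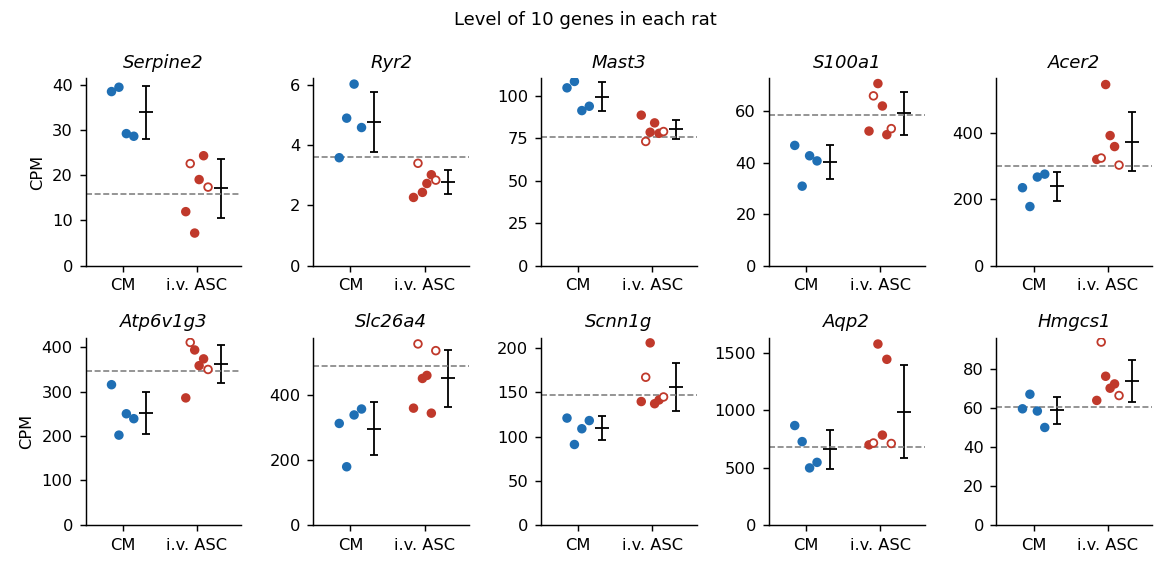
CPM (y axis, from 0) of 10 genes in each CM rat (blue) and each i.v. ASC rat (red, open for rats 2 and 6), with the mean and SD beside the points and the mean of the 6 untreated rats as a dashed line. Serpine2, Ryr2 and Mast3 are higher in all CM rats, S100a1, Acer2 and Scnn1g are lower in all of them, and Aqp2 is high in 2 i.v. ASC rats, at 1576 and 1443 CPM.

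The nephron segments upstream of the duct differed within the groups more than between them. The proximal tubule list had 26 of 30 members higher in CM, where 54.7% of all genes were, with a median log2 fold change of 0.20 and none at an unadjusted p under 0.05. Its mean log2 CPM was 8.59, 7.89, 7.70 and 7.89 in CM rats 1 to 4 and 8.82, 7.43, 8.22, 8.01, 7.30 and 7.11 in the 6 i.v. ASC rats. The span inside each group was thus wider than the difference of their means, and without CM rat 1 alone the median was -0.07. Without the 4 rats the median became 0.93, since i.v. ASC rats 2 and 6 were among the lowest, and 9 of 30 members were higher at an unadjusted p under 0.05, where 3.91% of all genes were. Lrp2, megalin, the uptake receptor of the segment, was at 2165, 1320, 915 and 1016 CPM in CM and at 2309, 658, 1510, 1122, 721 and 659.8 CPM after i.v. ASC. Slc34a1 was at 2377, 1227, 1369 and 1987 CPM in CM and at 2717, 926, 1717, 1316, 698 and 815 CPM after i.v. ASC.

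The CM rats fell into a pair of profiles in the other segments. Umod was at 7945, 5152, 2344 and 1639 CPM in CM rats 1 to 4 and at 5726, 2108, 4825, 3675, 4806 and 1820 CPM in the 6 i.v. ASC rats. Slc12a3, the sodium and chloride transporter of the distal convoluted tubule, ran the other way, at 680.01, 861, 2304 and 1670 CPM in CM and at 1455, 2445, 1734, 1478, 603 and 2295 CPM after i.v. ASC. CM rats 1 and 2 were thus high in Umod and low in Slc12a3, and CM rats 3 and 4 the reverse, a spread that the i.v. ASC rats showed as well. The thick ascending limb, distal convoluted tubule and podocyte lists had medians of 0.09, -0.16 and 0.25, and of 0.51, -0.46 and -0.21 without the 4 rats. The thick limb median was -0.21 without CM rat 1, and the podocyte median was -0.17 without CM rat 4. Bsnd, barttin, a chloride channel subunit of the thick limb and of intercalated cells, was the one thick limb gene with an unadjusted p under 0.05, lower in CM (139, 102, 158 and 142 CPM against 175, 178, 213, 144, 164 and 202 CPM).

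Energy metabolism gave small differences whose medians moved with the i.v. ASC rats used. Complex I of the respiratory chain had 1 of 34 genes higher in CM with a median log2 fold change of -0.13, and complexes II to V had 2 of 39 with a median of -0.11. No member of either had an unadjusted p under 0.05, and without the 4 rats 24 and 21 genes were higher and the medians were 0.06 and 0.03. The citrate cycle and fatty acid oxidation had medians of 0.02 over 26 and -0.01 over 26 genes. When the 4 rats were left out, 26 and 22 of these were higher in CM (51.4% of all genes), with medians of 0.19 and 0.29 and none at an unadjusted p under 0.05. Cytosolic ribosomal proteins, many of which have pseudogenes that can share their reads, had 6 of 75 genes higher in CM, with a median of -0.15, and 7 with a median of -0.18 without the 4 rats.

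Glycolysis and gluconeogenesis gave small differences too. Of 24 glycolytic genes 18 were lower in CM, with a median log2 fold change of -0.08, and 14 with a median of -0.05 without the 4 rats. Ldha, the muscle-type lactate dehydrogenase, was at 523, 484, 457 and 423 CPM in CM and at 497 to 620.2 CPM, with a median of 567 CPM, after i.v. ASC (log2 fold change -0.25, SE 0.08, edgeR adjusted p = 0.993). Pkm, pyruvate kinase, was at 499, 514, 498 and 461 CPM in CM and at 492 to 677 CPM, with a median of 557 CPM, after i.v. ASC. The other glycolytic genes had an unadjusted p above 0.05, and so had all 9 genes of gluconeogenesis, whose median was 0.16, 0.38 without the 4 rats and -0.08 without CM rat 1.

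Some genes of sterol synthesis were lower in CM. Hmgcs1, which makes HMG-CoA for cholesterol, was at 59.6, 67.1, 58.5 and 50.04 CPM in CM and at 63.9, 93.9, 76.3, 70.2, 72.4 and 66.4 CPM after i.v. ASC (log2 fold change -0.33, SE 0.11, edgeR adjusted p = 0.993). Only CM rat 2 lay above the lowest i.v. ASC rats. Msmo1, a sterol oxidase, had a log2 fold change of -0.28 (SE 0.12), and 16 of 23 genes of the pathway were lower in CM (median -0.10), and 13 without the 4 rats (median -0.09). Against the untreated rats Hmgcs1 was at -0.05 for CM and 0.28 for i.v. ASC on the log2 scale. Pparg, a fatty acid receptor, was at 4.06, 3.05, 2.58 and 2.13 CPM in CM and at 9.05, 2.40, 15.8, 2.73, 6.91 and 1.76 CPM after i.v. ASC, high in the rats that were high in urothelial genes. The whole list of PPAR receptors and targets had 17 of 29 genes higher in CM and a median of 0.10, and 19 and 0.29 without the 4 rats.

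Most injury genes of the tubule were at lower levels in CM, and none passed the adjusted threshold. Of 25 tested members 22 were lower (45.3% of all genes), 4 with an unadjusted p under 0.05 (2.81%) and 2 with no overlap (0.396%), with a median log2 fold change of -0.16. Against i.v. ASC rats 2 and 6 alone, 20 were lower (48.6%), 7 lower and 1 higher at that p (3.34% and 3.91%), with a median of -0.36. The mean log2 CPM of the list ran from 7.41 to 7.79 in CM and from 7.44 to 8.18 after i.v. ASC. It was 8.18 in i.v. ASC rat 2 but 7.71, within the CM range, in rat 6. Krt18, a keratin of simple epithelia, was at 70.4, 89.02, 76.9 and 94.1 CPM in CM and at 98.04, 132, 161, 101.3, 144 and 96.04 CPM after i.v. ASC, with no overlap (log2 fold change -0.56, SE 0.18, edgeR adjusted p = 0.993). Its partner Krt8 was at 342, 379, 339 and 417 CPM in CM and at 376 to 489 CPM, with a median of 441 CPM, after i.v. ASC. S100a6, a calcium-binding protein, was at 108, 143, 149.8 and 139 CPM in CM and at 158, 251, 532, 150.3, 223 and 153 CPM after i.v. ASC, also with no overlap. Its nearest rats, at 149.8 and 150.3 CPM, barely differed. On the deposited TPM the groups overlapped in both Krt18 and S100a6. Havcr1, KIM-1, the classic injury marker, was at 137, 132, 115 and 140.1 CPM in CM and at 155, 287, 160.4, 254, 76.4 and 128 CPM after i.v. ASC, a difference within the spread of the i.v. ASC rats (edgeR adjusted p = 0.993).

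Matrix and signalling lists stayed near the background. Genes of the extracellular matrix and its receptors had a median log2 fold change of 0.09, TGF-beta signalling of 0.09, Wnt signalling of 0.04, cAMP of 0.07, calcium signalling of 0.07 and JAK-STAT of 0.08. With the 4 rats left out these medians ran from -0.13 for the matrix to 0.05 for calcium signalling. The 6 lists had 37, 31, 35, 31, 31 and 30 genes tested. At an unadjusted p under 0.05 they held 1 gene higher in CM, Ryr2, and 3 lower, Sdc1, Sdc4 and Wnt4. Of all genes 1.28% were higher and 2.81% lower at that p, so these counts do not stand out from the background. Sdc1, syndecan 1, was at 41.4, 61.1, 52.4 and 44.9 CPM in CM and at 91.6, 57.9, 173, 53.2, 113 and 49.2 CPM after i.v. ASC, high in rats 3, 5 and 1, and its log2 fold change went from -0.84 to -0.10 without the 4 rats. Sdc4, syndecan 4, was at 597, 636, 629 and 626 CPM in CM and at 625 to 806 CPM, with a median of 752 CPM, after i.v. ASC. Wnt4, a ligand of the collecting duct and papilla, was at 0.637, 1.53, 1.58 and 2.13 CPM in CM and at 3.07, 1.33, 11.99, 0.954, 6.19 and 1.92 CPM after i.v. ASC, again high in rats 3 and 5. Fibroblast genes had 18 of 22 higher in CM with a median of 0.27, while 3 were higher and the median was -0.21 without the 4 rats.

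With all rats, the immune and interferon lists did not separate the groups. The interferon response list had 26 of 27 genes higher in CM, where 54.7% of all genes were, and a median log2 fold change of 0.25, with none at an unadjusted p under 0.05, and a mean log2 CPM of 4.49, 4.97, 5.19 and 5.80 in CM rats 1 to 4 against 4.71, 5.13, 4.92, 4.999, 4.84 and 5.03 in the 6 i.v. ASC rats. The CM rats thus lay on both sides of the i.v. ASC rats. The median was -0.02 without CM rat 4, and without the 4 i.v. ASC rats it was 0.09 with 20 genes higher. Macrophage, lymphocyte and chemokine lists had medians of 0.09, 0.09 and 0.11 with all rats and of -0.35, -0.34 and -0.34 without the 4. In that fit 20 of 20, 22 of 23 and 29 of 33 members were lower in CM (48.6% of all genes). Of these, 1, 2 and 7 had an unadjusted p under 0.05 (3.34% of all genes). The NF-kB and TNF list had a median of -0.04 with all rats. Without the 4 it was -0.27, with 26 of 27 genes lower and 5 lower at that p. In the macrophage, lymphocyte, chemokine and NF-kB and TNF lists, i.v. ASC rats 2 and 6, the rats kept in that fit, had the highest mean log2 CPM of the 6 i.v. ASC rats. These shifts thus depend on which rats remain. Ccl22, a chemokine of dendritic cells, was lower in CM, at 7.24, 7.14, 7.54 and 12.7 CPM against 8.89, 15.996, 12.6, 16.9, 13.3 and 17.03 CPM, with CM rat 4 inside the i.v. ASC range. Fgg, a fibrinogen chain, was lower in all CM rats, at 1.99, 1.69, 2.08 and 1.98 CPM, than in all i.v. ASC rats, at 3.96, 5.47, 3.65, 5.93, 2.14 and 4.22 CPM (log2 fold change -1.13, SE 0.34, edgeR adjusted p = 0.971), though the nearest pair of rats differed by under 0.1 CPM. On the deposited TPM the groups overlapped in Fgg.

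Most genes of cystic disease were at slightly higher levels in CM, and none passed the adjusted threshold. Of 20 tested members 16 were higher (54.7% of all genes), 3 with an unadjusted p under 0.05 (1.28%), with a median log2 fold change of 0.13. Against i.v. ASC rats 2 and 6 alone, the number higher was 18 (51.4%), 4 at that p (3.91%), with a median of 0.09. Invs, inversin, a protein of the cilium, was at 18.2, 17.5, 16.8 and 15.6 CPM in CM and at 11.8 to 16.8 CPM, with a median of 14.7 CPM, after i.v. ASC. Pkd2, the channel polycystin 2, was at 136, 139, 146 and 149 CPM in CM and at 124 to 139 CPM, with a median of 129 CPM, after i.v. ASC (log2 fold change 0.12, SE 0.05, edgeR adjusted p = 0.993). Pkd1, polycystin 1, was at 86.5, 96.6, 139 and 133 CPM in CM and at 75.97, 96.1, 89.5, 94.6, 93.4 and 122 CPM after i.v. ASC. Anks6 itself, whose mutation all these rats carry, was at 90.9, 61.4, 65.7 and 72.7 CPM in CM and at 99.1, 55.2, 64.3, 65.02, 57.1 and 53.8 CPM after i.v. ASC (log2 fold change 0.14, 95% interval -0.18 to 0.47).

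Clock genes, fat and blood overlapped between the groups. Per1, Per2, Dbp and Nr1d1, whose RNA follows the time of day, had log2 fold changes of -0.09, 0.16, -0.13 and 0.18, each with a 95% interval that holds 0. Adipoq, adiponectin of fat cells, was at 23.7, 20.7, 20.3 and 17.8 CPM in CM and at 20.9, 42.8, 31.9, 29.2, 31.04 and 24.9 CPM after i.v. ASC (log2 fold change -0.55, SE 0.21, edgeR adjusted p = 0.993), while the adipocyte list as a whole had a median of 0.08. Hbb, a beta globin that shares reads with its near-identical copies, ranged from 15.8 to 104 CPM in CM and from 15.8 to 66.7 CPM after i.v. ASC. Agtr1a, the angiotensin II receptor, was at 19.9, 22.96, 26.4 and 43.5 CPM in CM and at 9.46, 27.8, 9.48, 16.1, 15.8 and 28.3 CPM after i.v. ASC, lowest in i.v. ASC rats 1 and 3, and its log2 fold change went from 0.66 to 0.01 without the 4 rats.

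**Figure D5:**
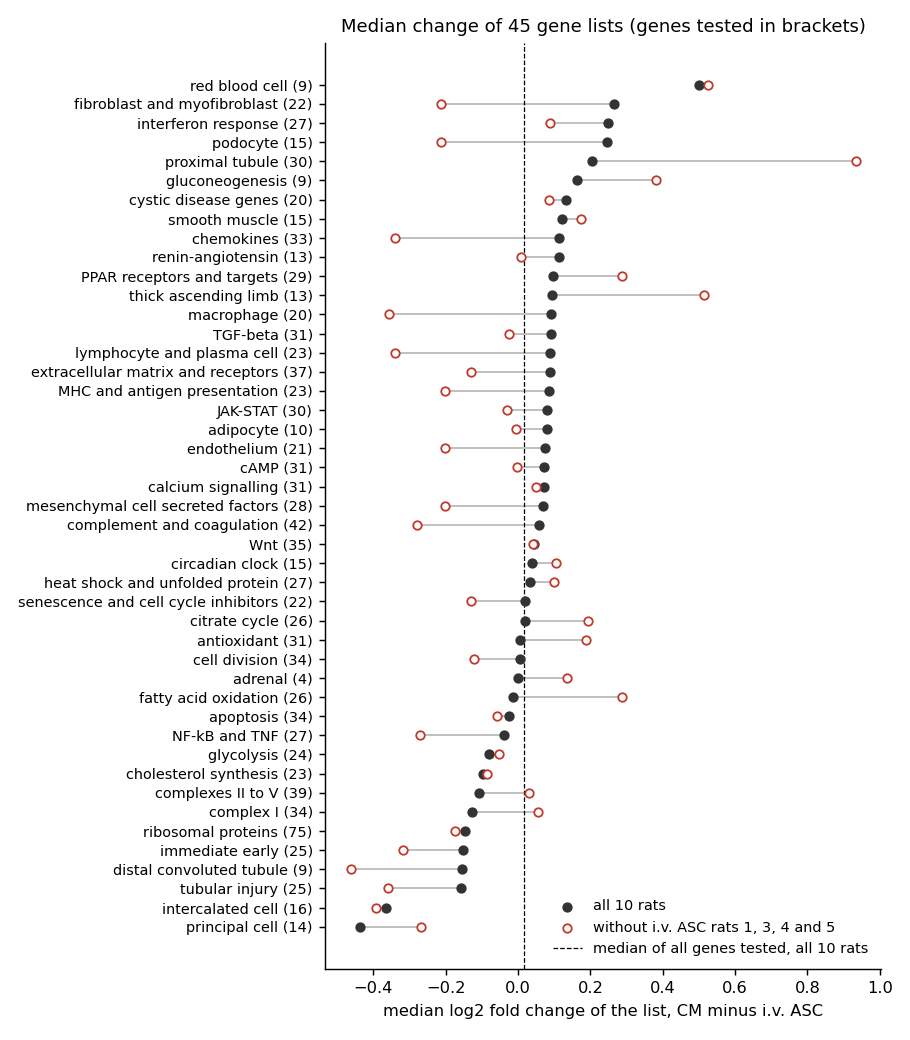
Median log2 fold change, CM minus i.v. ASC (x axis), of 45 gene lists with the number of genes tested in brackets, for all 10 rats (filled) and without i.v. ASC rats 1, 3, 4 and 5 (open), with the median of all genes as a dashed line. The urothelium list is left out for scale, and of those drawn the intercalated and principal cell lists lie lowest with all rats, at -0.37 and -0.44, and many lists, such as the proximal tubule with 0.20 and 0.93, shift when the 4 rats are left out.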

How the data were processed

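Kidney RNA of 22 rats was used, 6 untreated, 4 CM, 6 i.v. ASC and 6 i.p. ASC, each from 1 animal, with groups and treatments taken from the sample labels. The authors extracted total RNA from the snap-frozen left kidney and sequenced it on the BGISEQ-500 platform. The submitters' processing notes name Trim Galore 0.6.4, kallisto 0.4.6 and the genome build rn6, with no role or order given. The authors deposited, per rat and Entrez gene, an estimated count, not normalized, and a TPM value, scaled for transcript length and total. The deposited TPM of the CM and i.v. ASC rats summed to between 960726 and 968550. How reads shared by paralogs, overlapping or antisense genes were split is not given in the sources used here, so such genes are uncertain.

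From these values the following was computed. The estimated counts, of which 14.08% were not whole, were rounded. Of 17334 genes 17179 were given a symbol through the RefSeq table of GRCr8, used for names and promoters only. Genes were tested in R 4.3.3 with the quasi-likelihood F test of edgeR 4.0.16. A single fit held all 22 rats, the contrast was CM minus i.v. ASC, TMM factors ran from 0.903 to 1.069, and filterByExpr kept 12867 genes. P-values were adjusted by Benjamini-Hochberg and called under 0.05. CPM were computed from the rounded counts, and log2 CPM used a prior count of 2. The SE is the log2 fold change divided by the root of F, and intervals are at 95%. A list is described by counts and by its median beside all genes, and its level in a rat is the mean log2 CPM of its members. A log2 fold change of a gene near 0 counts depends on the prior count.

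The depth of 12195682 to 14734772 counts per rat makes 3 counts, the floor used here, about 0.2 CPM. Spearman correlations between rats were 0.94 or higher. Within a group, each of the 21 pairs of CM or i.v. ASC rats differed by more than sampling noise (chi-square per gene 12.66 to 138.62). The scripts were tested on simulated counts with known changes.

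As alternatives, the test was DESeq2 1.42.0 or, on log2(TPM + 1) and log2(TPM + 0.1), limma-trend of limma 3.58.1. Others used RLE factors, robust estimation, no filter or at least 10 counts in every rat, the 10 rats alone in the fit, a surrogate variable from sva 3.50.0, TPM in place of CPM for genes without overlap, or left out each rat in turn. After the data were seen, edgeR and DESeq2 without i.v. ASC rats 1, 3, 4 and 5 and the proximal tubule list as a covariate were added. The comparison and the gene lists were chosen with earlier results of these data known. Genes were named by a rule: the 12 with the smallest p in each direction with a mean of at least 1 CPM, members of the lists with the smallest p, every gene that a tool called, and a set of defining markers. Others, such as Scnn1b, Aqp3 or Havcr1, were named after their values were seen, to fill out a group. Some genes of the lists are not reported here.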

Additional observations from a re-analysis of the deposited data

Results flagged for a closer look

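Of 280 sets of 4 or 6 rats (a named gene or list in the CM or the i.v. ASC group), 11 held a rat that stood apart from the rest of its group by Dixon's test, where chance gives about 1 in 20. All values are on the log2 CPM scale. In CM, 3 of them were genes near 0 counts, where a single count moves the value: Upk2 had 1 rat at -2.11 and the others at -2.71, Sprr1a 1 rat at -1.68 and the others at -2.71, and Sptssb 1 rat at -1.09 and the others from -2.16 to -2.10.

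Rhbg, the ammonia channel of the collecting duct, was at 7.95 in CM rat 1 and between 7.29 and 7.39 in the other CM rats, so that its difference between the groups rests on 3 of the 4 CM rats. Snurf was at 4.93 in the lowest CM rat and from 5.12 to 5.16 in the others. Ccl22 was at 3.69 in CM rat 4 and from 2.87 to 2.94 in the others.

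After i.v. ASC, Anks6 was at 6.63 in rat 1 and between 5.75 and 6.03 in the other rats. Slc12a3 was at 9.24 in i.v. ASC rat 5 against 10.51 to 11.26, and Per1 was at 5.61 in the same rat against 6.46 to 6.97. Over lists in CM, the lymphocyte and plasma cell list was at 2.55 in 1 rat and from 3.37 to 3.49 in the others, and the Wnt list at 3.58 in 1 rat and from 3.94 to 4.02 in the others.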

How the results depend on the processing

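No paired analysis was possible because the rats of the 2 groups are different animals and the labels give each rat only a library number. edgeR called 0 genes under every alternative of size factors, filter, rats in the fit, robust estimation, surrogate variable and covariate, limma-trend called 0 on TPM, and edgeR called 0 to 0 with each rat left out, while DESeq2 called 22. The number of genes whose groups do not overlap was 80, was 46 on the deposited TPM, and ran from 96 to 373 with a rat left out, more in each case because fewer rats have to be separated, and most without CM rat 1. Genes with an unadjusted p under 0.05 numbered 527, and 325 without i.v. ASC rat 3, 1015 without CM rat 1, 833 without i.v. ASC rat 1, 834 without i.v. ASC rat 6, 1070 with 1 surrogate variable (smallest adjusted p 0.061), 257 and 261 on log2(TPM + 1) and log2(TPM + 0.1), and 854 with the proximal tubule covariate. Of 2117 settings of 94 genes named, 2072 left direction and side of the threshold as they were (for genes taken by level only, the value within the spread between rats), 20 passed the threshold only in DESeq2, 15 turned direction, and 10 moved 5 genes taken by level only (Slc34a1, Lrp2, Umod, Slc12a1 and Slc4a1) by more than the spread between rats, all without the 4 i.v. ASC rats. All 15 came from leaving out the 4 i.v. ASC rats (edgeR and DESeq2 values): Upk1a 1.58 and 1.59, Krt15 0.90 and 0.93, Tp63 0.20 and 0.20, Fat2 0.23 and 0.22, Elf5 0.54 and 0.54, Fxyd4 0.20 and 0.20, Pparg 0.51 and 0.51, and Upk3a 0.42 in DESeq2. That setting leaves 2 i.v. ASC rats and removes the rats high in these genes. List medians moved by more than the spread between rats in 17 of 1058 settings, in 6 lists. With each rat left out, 29 of 46 list medians took the other sign at least once, for example the proximal tubule (-0.07 to 0.48), podocyte (-0.17 to 0.46), interferon (-0.02 to 0.33), gluconeogenesis (-0.08 to 0.48) and thick limb lists (-0.21 to 0.25), whereas the intercalated (-0.41 to -0.28), principal cell (-0.48 to -0.32), tubular injury (-0.26 to -0.12) and cystic disease lists (0.09 to 0.18) were among those that did not.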
